A study of Mus musculus with 12 samples.

Results

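The genes described here are 53 genes of mitosis: the kinases that start it, the spindle checkpoint, kinesins, kinetochore proteins, the chromosomal passenger complex, spindle and cytokinesis proteins, and the proteins that shape chromosomes. The rule lists them by name. All 53 were found among the 47359 gene rows of the deposited table, and all 53 passed the filter on low counts, which left 21565 genes for testing.

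A dividing cell enters mitosis when CDK1, bound to cyclin B, becomes active. Condensins and topoisomerase II compact and untangle the chromosomes, kinetochores attach them to spindle microtubules, and the spindle checkpoint holds the cell in metaphase until every chromosome is attached. CDC20 then directs the anaphase-promoting complex to degrade cyclin B, and the central spindle and the contractile ring split the cell. Most of these genes are transcribed only late in the cell cycle, so their RNA is scarce in resting T cells and abundant in T cells that are clonally expanding.

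The RNA came from TH17 cells, helper T cells that make IL-17A and IL-17F. Cells of 2D2 mice, which carry a transgenic T cell receptor for a myelin protein, were transferred into RAG2-/- hosts, which lack T and B cells of their own. They were recovered from the central nervous system (CNS) when experimental autoimmune encephalomyelitis, an inflammatory disease that serves as a model of multiple sclerosis, had reached its peak. The donor cells were 2D2-WT or 2D2-IL-17A/F-DKO, a double knockout (DKO) of Il17a and Il17f, and each was sorted into a CXCR6+ and a SLAMF6+ subset. CXCR6 and SLAMF6 are surface proteins that the study used to separate the cells. WT cells gave 5 libraries of each subset, and DKO cells gave 1 library of each. The comparisons ask whether the subsets differ within WT, whether loss of both cytokines changes each subset, and whether it changes them differently. The labels do not give the age of the mice. The sample descriptions end in m1 to m5 for the WT libraries of each subset and in m0 for both DKO libraries, and what this number stands for is not stated. The labels do not say that libraries of a group came from separate mice, so p-values measure the spread between these libraries, which may be technical. Each DKO group was 1 library, and its spread was assumed to be that of the WT libraries.

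Library totals ran from 6818658 to 11635037 counts. Several libraries stood apart. Il17a had 1622 to 4751 counts in the WT libraries and 0 (CXCR6+) and 3 (SLAMF6+) counts in the DKO libraries. Of all counts of T cell receptor beta variable segments, Trbv16, the segment of the 2D2 receptor, held 99.6% to 99.8% in the WT libraries but 9.96% (CXCR6+) and 6.51% (SLAMF6+) in the DKO libraries, which goes against the 2D2 label of both. Haemoglobin genes held 11.9% of the DKO SLAMF6+ library. Cxcr6 itself had 4.33 CPM in WT CXCR6+ replicate 3, below the 11.4 to 19.1 CPM of the WT SLAMF6+ libraries, whereas the other 4 WT CXCR6+ libraries had 19.8 to 42.8 CPM. In the DKO libraries Cxcr6 was at 381 (CXCR6+) and 162 (SLAMF6+) CPM, both above every WT library of either subset. Slamf6 was at 75.7 (CXCR6+) and 258 (SLAMF6+) CPM in DKO. It had 1.69 to 5.01 CPM in WT CXCR6+ and 5.89 to 11.0 CPM in WT SLAMF6+. Mitochondrial genes held 12.9% to 17.6% of counts in WT CXCR6+ and 2.20% to 5.24% in WT SLAMF6+. Every DKO result below rests on the 2 DKO libraries and cannot be given without them.

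Levels are in CPM, counts relative to the library total after scaling by TMM. Log2 fold changes are given with an approximate standard error, which need not match the p-value. For genes with few counts in a DKO library it can understate the error. Sapcd2 in DKO CXCR6+, with 1 count, has -7.96 ± 0.40. Counting error alone gives an interval of 50.1 to 11019 for its ratio of WT to DKO. Adjusted p-values are those of the quasi-likelihood test in edgeR, adjusted by Benjamini-Hochberg over all 21565 genes. A gene was called at 0.05. Together the 53 genes made up 2468, 3141, 2675, 2646 and 2603 CPM in the WT CXCR6+ libraries and 3248, 3081, 3040, 3438 and 3398 CPM in the WT SLAMF6+ libraries, a mean of 2707 ± 255 (SD, n = 5) against 3241 ± 180 (SD, n = 5). Their sum was 635 CPM in the CXCR6+ and 733 CPM in the SLAMF6+ library of DKO cells, 4.26-fold and 4.42-fold below the WT mean of the same subset. Both DKO sums lay far below all WT libraries, and the WT subsets overlapped. In bulk RNA, fewer dividing cells and less of these RNAs per cell cannot be told apart.

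**Figure D1:**
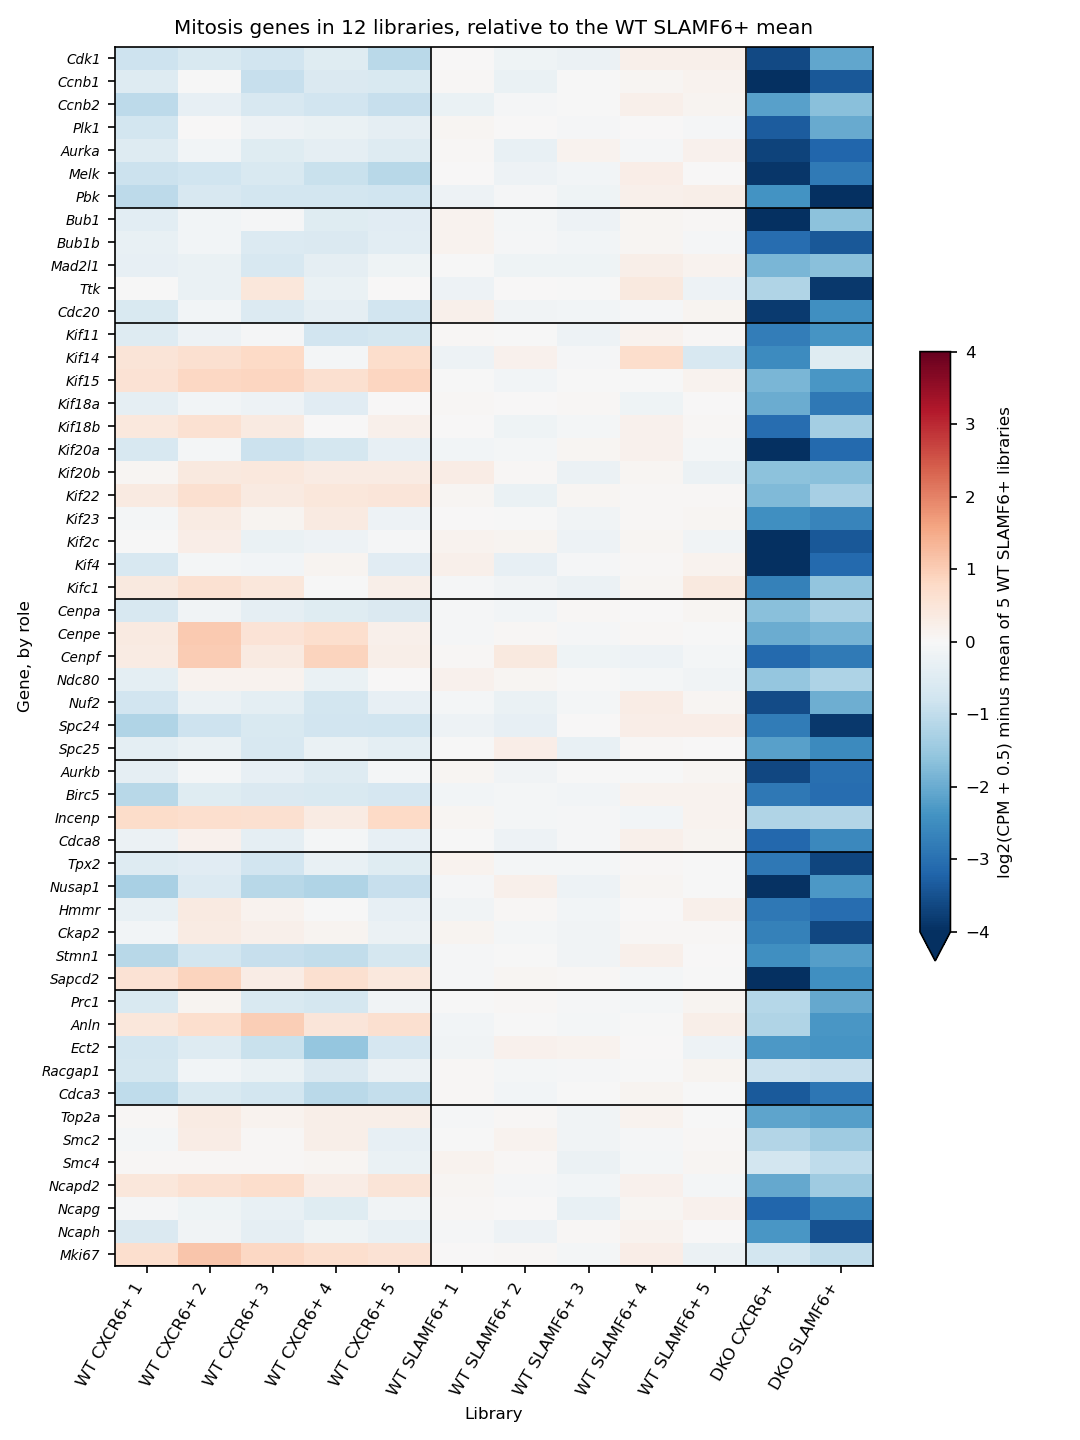
Heat map of the 53 genes (rows, by role) in the 12 libraries (columns), as log2(CPM + 0.5) minus the mean of the 5 WT SLAMF6+ libraries. The DKO columns are blue in nearly every row, and the WT CXCR6+ columns hold both paler blue rows such as Nusap1 and Stmn1 and red rows such as Kif15 and Mki67.

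In CXCR6+ cells, 51 of the 53 genes were lower in DKO than in WT and 0 were higher. Of all tested genes, 28.7% were called in this comparison, 15.9% as lower and 12.8% as higher. In SLAMF6+ cells, 52 of the 53 were lower in DKO and 0 were higher, where 31.1% of all tested genes were called, 17.5% as lower and 13.5% as higher. Both sets of calls shared 50 genes. Over all tested genes, the share called lower in both cannot exceed the 15.9% called lower in CXCR6+. The median log2 fold change of the 53 genes was -2.61 in CXCR6+ and -2.48 in SLAMF6+, beside -0.22 and -0.05 over all tested genes. With library sizes that leave out haemoglobin, receptor, mitochondrial and ribosomal protein genes, 51 and 52 genes were lower. Within WT the genes split: 23 were lower in CXCR6+ than in SLAMF6+, 9 were higher and 21 were not called, with a median of -0.26 beside 0.13 over all tested genes. There 33.3% of all tested genes were called, 17.7% as lower and 15.6% as higher in CXCR6+.

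The promoters of these genes are known for a shared arrangement of 2 elements. The CHR (cell cycle genes homology region) is bound by the DREAM complex in resting cells and by MuvB with B-MYB and FOXM1 in dividing cells, and CCAAT boxes upstream of it are bound by NF-Y. RefSeq promoter windows (GRCm38.p6, 250 bases before to 50 after the start) were found for 45 of the 53 genes, 47 windows in all, since Ect2 and Prc1 have 2 each. The windows below show 150 bases before to 30 after the start, with TTTGAA (CHR), CCAAT and the E2F elements TTTGGCGC and TTTCCCGC in capitals, on either strand (on the other strand CCAAT reads as ATTGG and TTTGAA as TTCAAA). Only these exact letters were searched, so a window without TTTGAA may still hold another form of the CHR. Cdk1 and Cdc20 are shown as genes lower in WT CXCR6+, and Kif15 and Mki67 as genes higher there. Cdca8 and Top2a are shown as genes not called there, and Ccnb1 as a gene without TTTGAA. All 7 were lower in both DKO comparisons. They lie at chr10:69352883-69353062 (minus strand), chr4:118437314-118437493 (minus strand), chr9:122950931-122951110 (plus strand), chr7:135716350-135716529 (minus strand), chr4:124936888-124937067 (minus strand), chr11:99024160-99024339 (minus strand) and chr13:100786457-100786636 (minus strand), in that order.
Cdk1: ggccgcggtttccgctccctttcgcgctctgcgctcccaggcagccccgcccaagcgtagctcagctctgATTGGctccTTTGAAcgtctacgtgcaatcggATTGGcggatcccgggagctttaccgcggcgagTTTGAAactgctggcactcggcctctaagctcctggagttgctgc
Cdc20: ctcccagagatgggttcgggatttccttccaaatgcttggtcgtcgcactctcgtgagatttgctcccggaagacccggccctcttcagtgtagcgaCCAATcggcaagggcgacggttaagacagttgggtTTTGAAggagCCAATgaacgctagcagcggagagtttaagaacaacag
Kif15: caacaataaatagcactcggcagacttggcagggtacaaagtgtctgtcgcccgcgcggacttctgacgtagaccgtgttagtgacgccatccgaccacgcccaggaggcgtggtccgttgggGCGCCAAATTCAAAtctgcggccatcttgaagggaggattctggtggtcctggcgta
Mki67: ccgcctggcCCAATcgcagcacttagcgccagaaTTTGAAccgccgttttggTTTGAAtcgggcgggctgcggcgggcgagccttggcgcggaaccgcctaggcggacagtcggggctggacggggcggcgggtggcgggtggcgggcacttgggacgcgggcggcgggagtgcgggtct
Cdca8: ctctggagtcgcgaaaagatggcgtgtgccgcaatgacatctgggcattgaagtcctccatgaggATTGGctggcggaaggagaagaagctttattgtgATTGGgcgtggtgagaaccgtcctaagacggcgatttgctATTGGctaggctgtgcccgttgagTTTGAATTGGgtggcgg
Top2a: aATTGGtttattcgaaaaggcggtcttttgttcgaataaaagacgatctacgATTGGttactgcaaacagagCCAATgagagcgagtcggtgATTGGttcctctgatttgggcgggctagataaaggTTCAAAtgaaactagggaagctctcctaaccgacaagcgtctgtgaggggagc
Ccnb1: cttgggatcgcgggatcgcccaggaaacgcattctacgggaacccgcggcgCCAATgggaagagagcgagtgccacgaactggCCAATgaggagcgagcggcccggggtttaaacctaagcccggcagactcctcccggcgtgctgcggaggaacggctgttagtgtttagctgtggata

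TTTGAA was present in 36 of the 47 windows (76.6%), beside 17.9% of all 32851 windows of the same length, 16% of the windows of protein-coding genes and 10.3% of 39 windows of S phase genes. CCAAT was present in 72.3% of the members' windows and 37.4% of all windows, and at least 2 copies in 46.8% and 11.7%. TTTGAA and CCAAT stood together in 66.0% of the members' windows and 6.95% of all windows. The E2F elements were found in 8.51% of the members' windows, 28.2% of the S phase windows and 1.56% of all windows. Of the 36 windows with TTTGAA, 31 had it within 50 bases of the start, as the Cdk1, Cdc20, Kif15, Cdca8 and Top2a sequences show. In 1 window, that of Cdca8, a TTTGAA and a CCAAT on the other strand share a base. In the shorter window from 100 bases before the start, TTTGAA was in 68.1% of the members' windows and 8.01% of all windows.

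The 34 genes with TTTGAA had median log2 fold changes of -2.63 in DKO CXCR6+ and -2.45 in DKO SLAMF6+. The 11 genes without it had medians of -3.08 and -2.61. Within WT the medians were -0.05 with TTTGAA and -0.36 without. TTTGAA was in 12 of 19 windows of genes lower in WT CXCR6+, in 6 of 8 windows of genes higher there and in 18 of 20 windows of genes not called.

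**Figure D2:**
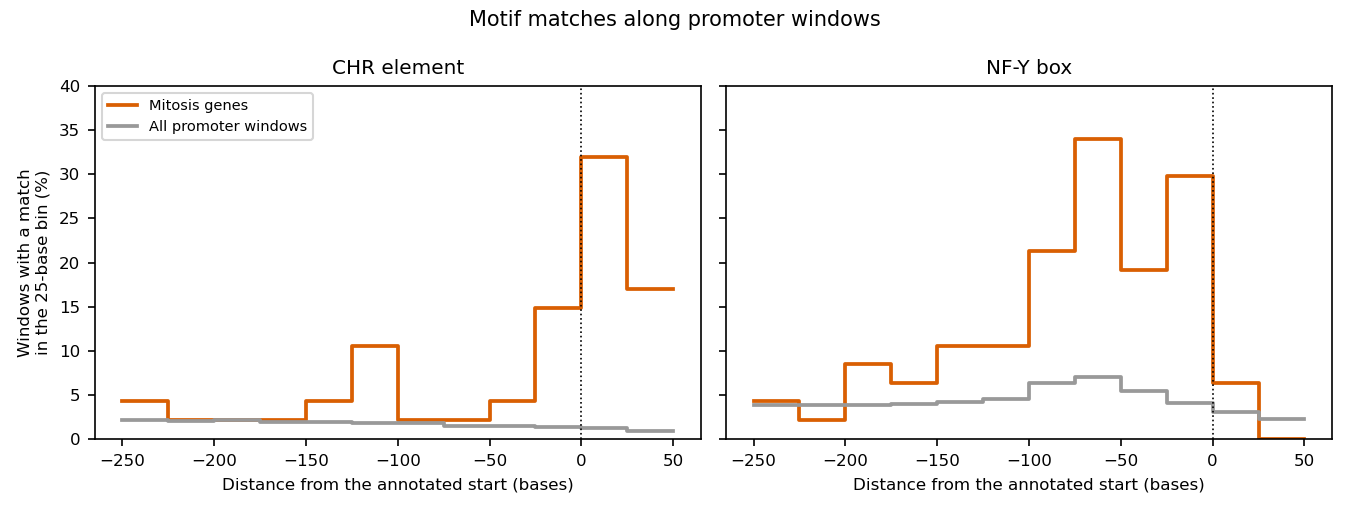
Share of promoter windows (y axis, percent) with a CHR element (left) or an NF-Y box (right) in each 25-base bin of distance from the annotated start (x axis, bases). Only exact TTTGAA and CCAAT were counted, in the 47 windows of mitosis genes and all 32851 windows. The CHR element peaks at 31.9% of the mitosis windows in the bin from 0 to 25 and CCAAT at 34.0% in the bin from -75 to -50.

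The group of 7 genes that drive entry into mitosis was lower in WT CXCR6+ cells for 6 genes (median log2 -0.74). Cdk1, the kinase that triggers mitosis (chr10:69335146-69352938, GRCm38), measured 114, 134, 118, 144 and 96.6 CPM in the 5 WT CXCR6+ libraries and 205, 179, 174, 232 and 231 CPM in the 5 WT SLAMF6+ libraries. The groups did not overlap, and the difference was -0.75 ± 0.12 on the log2 scale (adjusted p = 0.000688). Ccnb1, the cyclin B1 that activates CDK1, measured 93.1, 132, 70.5, 90.2 and 88.3 CPM in the 5 WT CXCR6+ libraries and 138, 111, 134, 142 and 149 CPM in the 5 WT SLAMF6+ libraries. Its groups overlapped through CXCR6+ replicate 2 and SLAMF6+ replicate 2, with a log2 difference of -0.51 ± 0.15 (adjusted p = 0.022). Melk, a kinase abundant in proliferating cells, had 19.4, 20.4, 23.4, 19.0 and 16.3 CPM in the 5 WT CXCR6+ libraries and 36.4, 31.1, 33.0, 43.8 and 36.7 CPM in the 5 WT SLAMF6+ libraries. Its groups did not overlap, and it was among the 3 lower genes of smallest p (log2 -0.88 ± 0.12, adjusted p = 0.000212). Pbk, a mitotic kinase, differed by -0.81 ± 0.12, Ccnb2, cyclin B2, by -0.74 ± 0.14 and Aurka, the centrosomal Aurora kinase, by -0.40 ± 0.11. Plk1, the Polo kinase of centrosomes and kinetochores, differed by -0.30 ± 0.12 and was not called (adjusted p = 0.0768).

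All 7 of these genes were lower in both DKO libraries. Cdk1 was at 16.2 (CXCR6+) and 47.8 (SLAMF6+) CPM (log2 -2.91 ± 0.27 and -2.09 ± 0.25 against WT, adjusted p = 1.39e-05 and 9.11e-05). Ccnb1 was at 4.5 and 12.4 CPM (log2 -4.39 ± 0.37 and -3.44 ± 0.34). Ccnb2 was at 19.6 and 27.9 CPM (log2 -1.47 ± 0.27 and -1.70 ± 0.28), a smaller fold change than that of Ccnb1 in both subsets, which was not tested. Pbk measured 14.8, 20, 18.6, 18.7 and 17.9 CPM in the 5 WT CXCR6+ libraries and 27.3, 30.1, 27.6, 36.2 and 37.0 CPM in the 5 WT SLAMF6+ libraries. It had 48 counts (5.54 CPM) in DKO CXCR6+ and 0 counts in DKO SLAMF6+. Against a floor of 3 counts in that library, Pbk was at least 73.0-fold lower in DKO SLAMF6+. Medians for the group were -3.15 in CXCR6+ and -2.97 in SLAMF6+, the latter also with Pbk at its bound.

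Of the 5 genes of the spindle checkpoint and its target, 3 were lower in WT CXCR6+ (median -0.36). Cdc20, the activator of the anaphase-promoting complex that the checkpoint holds back, measured 77.4, 110, 81.5, 91.0 and 69.6 CPM in the 5 WT CXCR6+ libraries and 135, 106, 110, 114 and 128 CPM in the 5 WT SLAMF6+ libraries. The groups overlapped through CXCR6+ replicate 2, and the difference was -0.46 ± 0.12 (adjusted p = 0.0129). Mad2l1, which encodes the checkpoint protein MAD2, measured 43.9, 46.4, 36.0, 43.3 and 49.9 CPM in the 5 WT CXCR6+ libraries and 54.7, 49.2, 49.7, 65.8 and 61.7 CPM in the 5 WT SLAMF6+ libraries, overlapping groups that differed by -0.36 ± 0.11 (adjusted p = 0.0279). Bub1b, the checkpoint protein BUBR1, differed by -0.39 ± 0.10 (adjusted p = 0.0148). Bub1 (-0.30 ± 0.12) and Ttk, the checkpoint kinase MPS1 (-0.02 ± 0.20), were not called. In the DKO libraries all 5 were lower. Cdc20 was at 7.85 (CXCR6+) and 21.1 (SLAMF6+) CPM (log2 -3.45 ± 0.28 and -2.49 ± 0.26). Mad2l1 was at 15.2 and 17.1 CPM (log2 -1.53 ± 0.22 and -1.72 ± 0.22).

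Bub1 was lower in the DKO CXCR6+ than in the DKO SLAMF6+ library, and Ttk the other way round. Bub1, a kinase that recruits the checkpoint to kinetochores, measured 19.7, 24.9, 25.9, 19.1 and 19.3 CPM in the WT CXCR6+ group, 29.5, 25.2, 23.0, 28.2 and 27.8 CPM in the WT SLAMF6+ group, and 0.577 (CXCR6+) and 8.24 (SLAMF6+) CPM in DKO. It rested on 5 counts in DKO CXCR6+ and 57 in DKO SLAMF6+, and the DKO difference in CXCR6+ minus that in SLAMF6+ (the interaction) was -3.51 ± 0.37 (adjusted p = 0.00112). Ttk measured 8.79, 7.23, 12.1, 7.25 and 8.8 CPM in the WT CXCR6+ group, 7.64, 8.83, 8.69, 11.8 and 7.6 CPM in the WT SLAMF6+ group, and 3.58 (CXCR6+) and 0.144 (SLAMF6+) CPM in DKO. It rested on 31 counts in DKO CXCR6+ and 1 in DKO SLAMF6+, where the ratio of WT to DKO was 61.7 with a 95% counting interval of 11.1 to 2438, and the interaction was 4.52 ± 0.65 (adjusted p = 0.003).

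The 12 kinesins, motors that move chromosomes and microtubules, were the group with the highest WT median, 0.22. Their summed level was 340 ± 30.8 CPM (SD, n = 5) in WT CXCR6+ and 306 ± 15.0 CPM (SD, n = 5) in WT SLAMF6+, overlapping ranges of 310 to 392 and 288 to 324. Kif15, a motor that helps keep spindle poles apart, measured 40.6, 48.2, 49.0, 42.1 and 48.8 CPM in the 5 WT CXCR6+ libraries and 26.4, 24.9, 26.8, 26.6 and 29.9 CPM in the 5 WT SLAMF6+ libraries. Every CXCR6+ library lay above every SLAMF6+ library, and the difference was 0.76 ± 0.08 (adjusted p = 3.94e-05), the smallest p of the higher genes. Kif22, a motor that pushes chromosome arms outward, measured 72.7, 88.7, 72.7, 78.5 and 79.3 CPM in the 5 WT CXCR6+ libraries and 60.2, 47.2, 60, 58.5 and 58.3 CPM in the 5 WT SLAMF6+ libraries, again without overlap (0.46 ± 0.08, adjusted p = 0.00146). Kif23, a motor of the central spindle, measured 46.6, 62.4, 53.1, 63.4 and 42.6 CPM in the 5 WT CXCR6+ libraries and 49.3, 48.9, 44.9, 50.6 and 52.3 CPM in the 5 WT SLAMF6+ libraries. The groups overlapped and it was not called (0.12 ± 0.11, adjusted p = 0.422). Kif20a (-0.51 ± 0.14), a motor of cytokinesis, and Kif11 (-0.43 ± 0.15), the motor that separates the poles, were lower. In all, 8 kinesins were not called, from -0.23 for Kif18a to 0.55 for Kif14.

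In DKO CXCR6+ all 12 kinesins were lower (median -3.03), and in DKO SLAMF6+ 11 were (median -2.47). Kif15 was at 7.27 and 4.91 CPM (log2 -2.65 ± 0.18 and -2.45 ± 0.18). Kif23 was at 8.54 and 7.51 CPM (log2 -2.65 ± 0.25 and -2.71 ± 0.25). Kif2c, a kinesin that takes microtubule ends apart at centromeres, measured 24.1, 29.6, 20.3, 21 and 23.4 CPM in the WT CXCR6+ group, 27, 26.1, 21.2, 25.7 and 22.1 CPM in the WT SLAMF6+ group, and 0.461 (CXCR6+) and 1.88 (SLAMF6+) CPM in DKO. It was among the 3 genes of smallest p in DKO CXCR6+ (log2 -5.64 ± 0.35, adjusted p = 1.08e-06) and rested there on 4 counts. Kif4 had 2 counts in DKO CXCR6+, a WT to DKO ratio of 47.4 (95% counting interval 13.1 to 392).

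Kif14, a motor of cytokinesis, was the exception in SLAMF6+. It measured 4.58, 5.04, 5.7, 2.88 and 5.23 CPM in the WT CXCR6+ group, 2.58, 3.5, 2.93, 5.24 and 1.78 CPM in the WT SLAMF6+ group, and 0.115 (CXCR6+) and 2.02 (SLAMF6+) CPM in DKO. Its DKO SLAMF6+ value lay inside the WT range (log2 -0.66 ± 0.59, adjusted p = 0.445), whereas DKO CXCR6+ held 1 count, a ratio of 40.6 (7.29 to 1605). The interaction was called for Kif14 (-4.53 ± 0.97, adjusted p = 0.0147), Kif22 (-0.91 ± 0.22, adjusted p = 0.0232), Kifc1 (-1.72 ± 0.44, adjusted p = 0.0315) and Kif18b, each lower relative to WT in CXCR6+ than in SLAMF6+. Kif18b, a motor that trims astral microtubules, measured 15.2, 17.2, 14.4, 11.4 and 12.9 CPM in the WT CXCR6+ group, 11.4, 9.95, 10.5, 12.6 and 11.5 CPM in the WT SLAMF6+ group, and 0.923 (CXCR6+) and 4.05 (SLAMF6+) CPM in DKO (interaction -2.46 ± 0.38, adjusted p = 0.00385).

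Among 7 kinetochore and centromere genes, 4 were lower and 2 higher in WT CXCR6+. Cenpa, the histone variant that marks centromeres, measured 115, 162, 142, 129 and 120 CPM in the 5 WT CXCR6+ libraries and 174, 169, 185, 184 and 191 CPM in the 5 WT SLAMF6+ libraries, without overlap (-0.43 ± 0.09, adjusted p = 0.00346). Spc24, a subunit of the NDC80 complex that grips microtubules, measured 32.1, 41.9, 49.4, 43.7 and 43.1 CPM in the 5 WT CXCR6+ libraries and 65.1, 59.8, 75.4, 89.7 and 91.5 CPM in the 5 WT SLAMF6+ libraries, also without overlap (-0.86 ± 0.14, adjusted p = 0.000864). Of the 4 subunits of the NDC80 complex, Spc24, Nuf2 (-0.50 ± 0.15) and Spc25 (-0.41 ± 0.11) were lower and Ndc80 was not called (-0.06 ± 0.12, adjusted p = 0.753). Cenpe, the kinetochore motor (0.61 ± 0.16), and Cenpf, a large kinetochore protein (0.60 ± 0.19), were higher. With offsets for length and GC content, Cenpa (0.01) and Spc25 (0.06) were near 0 and not called.

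All 7 were lower in both DKO libraries, with medians of -2.03 and -2.05. Cenpa kept the highest level, at 55.7 (CXCR6+) and 73.5 (SLAMF6+) CPM (log2 -1.26 ± 0.17 and -1.29 ± 0.17). Spc24 was at 10.3 and 4.77 CPM (log2 -2.03 ± 0.30 and -4.0 ± 0.35), and its interaction was 1.96 ± 0.40 (adjusted p = 0.0113). Cenpf was at 1.96 and 2.46 CPM (log2 -4.0 ± 0.46 and -3.08 ± 0.44).

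The 4 genes of the chromosomal passenger complex, which corrects faulty attachments, also split in WT, with 1 lower and 1 higher. Birc5, the complex's survivin subunit, measured 68.9, 107, 101, 99.6 and 94.0 CPM in the 5 WT CXCR6+ libraries and 139, 144, 141, 167 and 165 CPM in the 5 WT SLAMF6+ libraries. Incenp, its scaffold, measured 133, 128, 126, 100 and 138 CPM in the 5 WT CXCR6+ libraries and 84.6, 75.1, 77.4, 73.9 and 88.9 CPM in the 5 WT SLAMF6+ libraries. The subsets did not overlap in either gene and stood in opposite order, with Birc5 lower in CXCR6+ (-0.68 ± 0.11, adjusted p = 0.000833) and Incenp higher (0.64 ± 0.09, adjusted p = 0.000273). Aurkb, the Aurora kinase of the complex (-0.26 ± 0.09, adjusted p = 0.0531), and Cdca8, which encodes borealin (-0.16 ± 0.11), were not called.

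In the DKO libraries all 4 were lower. Aurkb measured 80.7, 98.5, 82.3, 72.1 and 98.0 CPM in the WT CXCR6+ group, 108, 94.2, 101, 103 and 110 CPM in the WT SLAMF6+ group, and 7.85 (CXCR6+) and 12.4 (SLAMF6+) CPM in DKO, and its DKO difference in CXCR6+ was -3.46 ± 0.21 (adjusted p = 9.9e-07), among the 3 smallest p. Birc5 was at 20.5 and 17.8 CPM (log2 -2.20 ± 0.24 and -3.09 ± 0.25). Incenp was at 34.6 and 35.5 CPM (log2 -1.85 ± 0.18 and -1.17 ± 0.18).

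Of 6 spindle assembly and microtubule regulators, 3 were lower and 1 higher in WT CXCR6+ (median -0.26). Stmn1, which encodes the microtubule-destabilising stathmin, had 106, 137, 121, 117 and 141 CPM in the 5 WT CXCR6+ libraries and 224, 226, 206, 262 and 233 CPM in the 5 WT SLAMF6+ libraries. The groups lay far apart, and Stmn1 was the lower gene with the smallest p (-0.89 ± 0.09, adjusted p = 2.66e-05). Nusap1, which bundles spindle microtubules, had the lowest fold change of the 53 genes (-1.01 ± 0.14, adjusted p = 0.000232). Tpx2, the activator of Aurora A on the spindle, had 45.9, 48.1, 38.9, 53.6 and 47.1 CPM in the 5 WT CXCR6+ libraries and 74.0, 62.6, 62.5, 68.1 and 66.2 CPM in the 5 WT SLAMF6+ libraries, without overlap (-0.51 ± 0.09, adjusted p = 0.00101). Sapcd2, a regulator of spindle orientation, was higher in CXCR6+ (0.59 ± 0.11, adjusted p = 0.00195), without overlap, and Hmmr and Ckap2 were not called (-0.01 ± 0.14 and 0.07 ± 0.12).

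The DKO values of this group were all lower, with medians of -2.96 and -2.92. Stmn1 was at 41.5 (CXCR6+) and 49.4 (SLAMF6+) CPM (log2 -1.58 ± 0.18 and -2.22 ± 0.19). Tpx2 was at 8.77 and 4.77 CPM (log2 -2.41 ± 0.19 and -3.80 ± 0.21), and its interaction was 1.39 ± 0.24 (adjusted p = 0.00628). Sapcd2 measured 32.1, 40.1, 26.4, 33.8 and 28.4 CPM in the WT CXCR6+ group, 20.7, 22.6, 21.9, 20.2 and 21.2 CPM in the WT SLAMF6+ group, and 0.115 (CXCR6+) and 3.47 (SLAMF6+) CPM in DKO. It had 1 count in DKO CXCR6+, a WT to DKO ratio of 279 (95% counting interval 50.1 to 11019), and 24 counts in DKO SLAMF6+, with an interaction of -5.35 ± 0.46 (adjusted p = 0.000474).

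Of 5 genes of the midzone, cytokinesis and mitotic exit, 3 were lower and 1 higher in WT CXCR6+. Cdca3, a trigger of mitotic entry that is degraded at exit, measured 48.0, 64.5, 58.3, 46.3 and 50.9 CPM in the 5 WT CXCR6+ libraries and 102, 91.5, 96.4, 105 and 96.8 CPM in the 5 WT SLAMF6+ libraries. No values overlapped (-0.87 ± 0.09, adjusted p = 3.74e-05). Prc1, which cross-links microtubules of the central spindle, measured 42.1, 70.5, 42.1, 40 and 58.8 CPM in the 5 WT CXCR6+ libraries and 64.3, 66.7, 62.8, 61.8 and 70.4 CPM in the 5 WT SLAMF6+ libraries. Replicates 2 and 5 of CXCR6+ stood above its other 3 libraries, replicate 2 reached the SLAMF6+ values, and the gene was not called (-0.36 ± 0.15, adjusted p = 0.0951). Ect2 (-0.85 ± 0.17) and Racgap1 (-0.37 ± 0.11), which together switch on RHOA at the cleavage site, were lower, and Anln, the anillin of the contractile ring, was higher (0.67 ± 0.13, adjusted p = 0.0025).

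Both genes not called in DKO CXCR6+ belong here. Prc1 was at 29.5 CPM in DKO CXCR6+ (log2 -0.78 ± 0.28, adjusted p = 0.0639), below the lowest WT CXCR6+ value, and at 15.3 CPM in DKO SLAMF6+ (log2 -2.09 ± 0.32). Racgap1 was at 29.0 and 27.9 CPM (log2 -0.50 ± 0.20, adjusted p = 0.0937, and -0.92 ± 0.21, adjusted p = 0.00656). Cdca3 was at 9.11 and 12.9 CPM (log2 -2.55 ± 0.20 and -2.93 ± 0.21). The group's medians were -1.55 in CXCR6+ and -2.45 in SLAMF6+.

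The 7 genes of chromosome structure held the highest summed level of the role groups in WT, 611 ± 37.2 CPM (SD, n = 5) in CXCR6+; in SLAMF6+ their 557 ± 33.1 CPM came second to the 612 ± 57.6 CPM of the genes of mitotic entry. Top2a, topoisomerase II alpha, measured 162, 200, 175, 187 and 187 CPM in the 5 WT CXCR6+ libraries and 154, 162, 144, 176 and 158 CPM in the 5 WT SLAMF6+ libraries. The groups overlapped and it was not called (0.20 ± 0.07, adjusted p = 0.0565). Smc4, a core subunit of both condensins, measured 146, 144, 145, 147 and 115 CPM in the 5 WT CXCR6+ libraries and 155, 145, 120, 133 and 149 CPM in the 5 WT SLAMF6+ libraries, overlapping values with a log2 difference of -0.01 ± 0.09 (adjusted p = 0.956). Ncapd2, a condensin I subunit, measured 92.6, 102, 109, 82.0 and 96.5 CPM in the 5 WT CXCR6+ libraries and 71.6, 64.7, 61.6, 75.4 and 63.3 CPM in the 5 WT SLAMF6+ libraries, without overlap and higher in CXCR6+ (0.52 ± 0.09, adjusted p = 0.000897). Mki67, the proliferation marker Ki-67 that coats mitotic chromosomes, measured 36.5, 49.7, 40.4, 36.3 and 34.4 CPM in the 5 WT CXCR6+ libraries and 22.9, 23.3, 21.7, 27.2 and 19.5 CPM in the 5 WT SLAMF6+ libraries. Every CXCR6+ library lay above every SLAMF6+ library, and Mki67 had the highest fold change of the 53 genes (0.78 ± 0.12, adjusted p = 0.000521). The condensin subunit Ncaph was lower (-0.31 ± 0.10), while Ncapg (-0.23 ± 0.11) and Smc2 (0.05 ± 0.11) were not called.

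All 7 were lower in both DKO libraries, with medians of -2.08 and -1.45. Top2a was at 36.3 (CXCR6+) and 34.1 (SLAMF6+) CPM (log2 -2.32 ± 0.15 and -2.22 ± 0.15). Smc4 fell least in the group in CXCR6+, to 83.0 CPM (log2 -0.75 ± 0.17), and was at 68.3 CPM in SLAMF6+ (log2 -1.04 ± 0.17). Mki67 was at 13.4 and 11.3 CPM (log2 -1.56 ± 0.24 and -1.02 ± 0.23). Ncaph measured 28.4, 38.1, 32.7, 37.3 and 34.4 CPM in the WT CXCR6+ group, 41.1, 36.9, 43.8, 47.1 and 43.0 CPM in the WT SLAMF6+ group, and 8.08 (CXCR6+) and 3.32 (SLAMF6+) CPM in DKO (interaction 1.59 ± 0.27, adjusted p = 0.00558). Ncapd2 was at 15.8 and 24.7 CPM, with an interaction of the other sign (-1.16 ± 0.22, adjusted p = 0.00927).

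**Figure D3:**
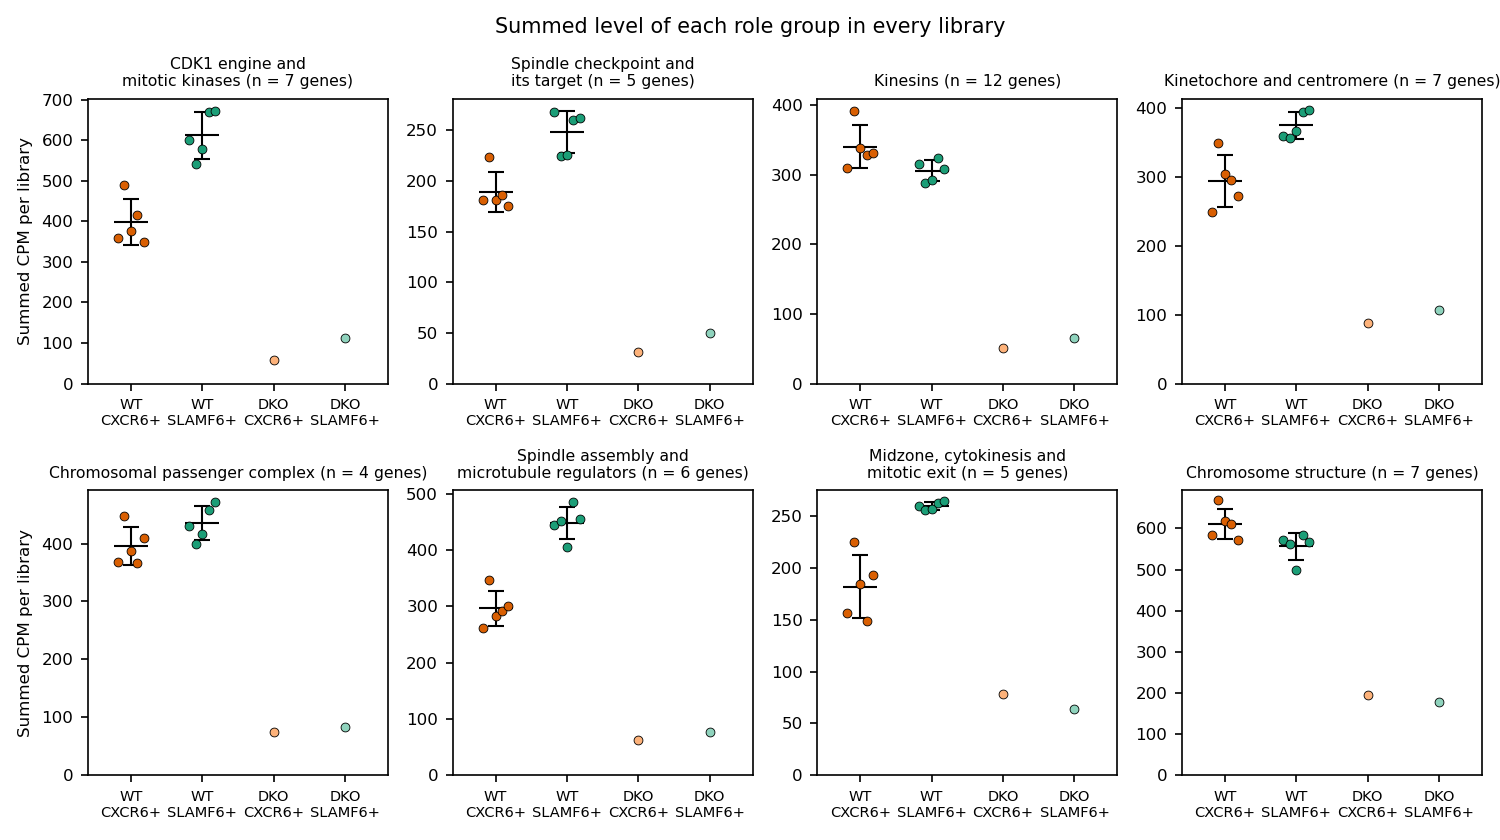
Summed CPM (y axis, from 0) of each role group in every library (points) of the 4 groups (x axis), with the mean and SD of the 5 WT libraries as bars; each DKO group is 1 library. Every DKO point lies below every WT point, and the order of the WT subsets is reversed for kinesins and chromosome structure compared with the other 6 role groups.

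Within WT, the log2 fold changes of the 53 genes ran from -1.01 for Nusap1 to 0.78 for Mki67. Of the genes called in WT, 5 were called in the same direction, at 0.05, in every alternative fit: Kif15 (0.57 to 1.02), Incenp (0.58 to 0.90), Birc5 (-1.15 to -0.43), Nusap1 (-1.27 to -0.76) and Cdca3 (-1.06 to -0.62). All 5 WT CXCR6+ libraries lay below all 5 WT SLAMF6+ libraries for 13 genes, beside 15.0% of all tested genes, and above them for 8, beside 12.8%. For the other 32 genes the libraries overlapped. With DESeq2 size factors in place of TMM, 20 genes were lower and 11 higher, where 33.4% of all tested genes were called. The split moved further with the libraries and genes in the fit. With only the WT groups in it, 17 genes were lower and 13 higher, where 54.5% of all tested genes were called, about the same share as of the 53. With only genes of at least 10 CPM in 5 libraries, 11 of 50 genes were lower and 17 higher, where 65.8% of all tested genes were called, so that the members' share was not above the background. The median there was -0.05 beside 0.01 over all tested genes. In that fit Smc4 stood at 0.24 (adjusted p = 0.0343), and the medians were positive for kinesins (0.46), chromosome structure (0.29) and the passenger complex (0.04) and negative for the other role groups. With the offsets for length and GC content the medians of the kinetochore group (0.06) and chromosome structure (-0.08) changed sign. The genes of mitotic entry had the lowest median of the role groups in both fits, -0.49 and -0.42.

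**Figure D4:**
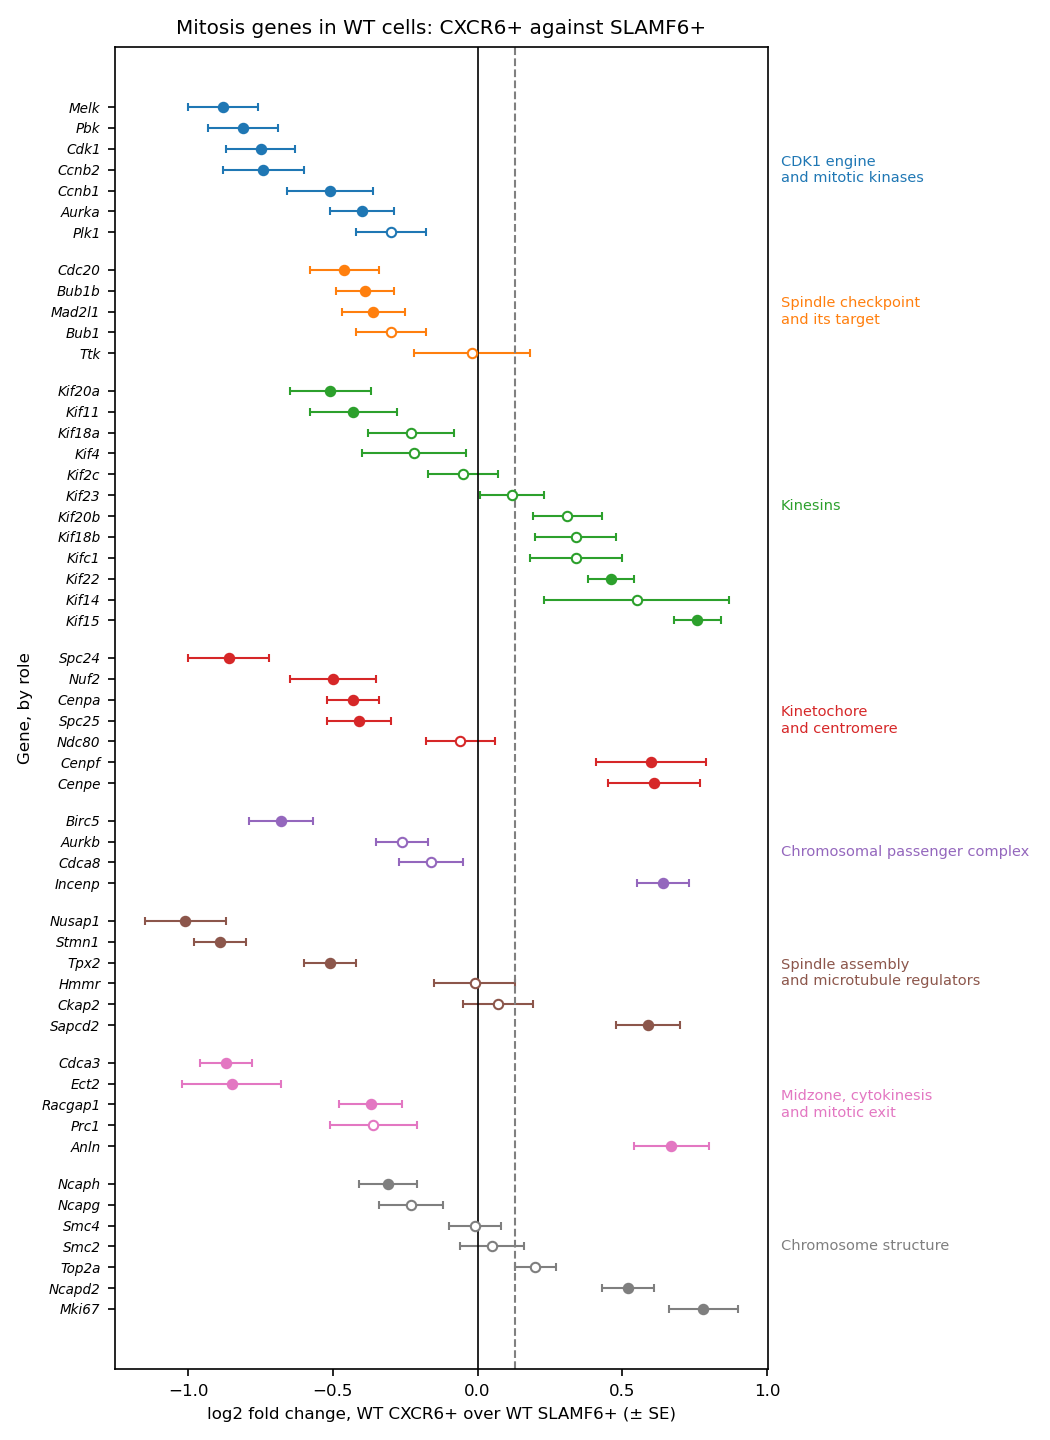
Log2 fold change of WT CXCR6+ over WT SLAMF6+ (x axis, with SE) for each of the 53 genes (rows, grouped and coloured by role), filled where called and open where not; the dashed line is the median of all tested genes, 0.13. Lower genes reach -1.01 (Nusap1) and higher genes 0.78 (Mki67).

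Within WT, longer members tended to have higher fold changes. Across the 53 genes, Pearson's r with the log of the longest coding transcript was 0.528 and Spearman's rho 0.467, a description across genes that share libraries and are not independent. Over 7597 tested genes of at least 10 CPM, r was -0.006 and rho 0.392, and over all 19515 tested genes with a length r was -0.101 and rho 0.024. Of the 17 shortest genes (1060 to 2489 nt) 11 were lower and 1 higher in CXCR6+, and of the 18 longest (3892 to 11130 nt) 5 were lower and 6 higher. For the DKO differences rho was -0.045 in CXCR6+ and 0.195 in SLAMF6+. With the offsets named above, 15 genes were lower and 6 higher in WT CXCR6+, where 32.5% of all tested genes were called.

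A mitochondrial tRNA gene, mt-Ts1, was listed at 0 in 1 WT CXCR6+ and 4 WT SLAMF6+ libraries and had 111496 to 357922 counts in all the others. With a term for this in the fit, 15 genes were lower and 7 higher, where 23.8% of all tested genes were called. Among libraries with mt-Ts1 at 0, 14 were lower and 2 higher (median -0.39), beside 15.7% of all tested genes called. Among those with counts, 4 were lower and 3 higher (median -0.15), near the 11.2% of all tested genes called. Each of these fits holds 1 library of a WT subset, which is assumed to vary like the others. Leaving out replicate 1 in both subsets left 12 lower and 9 higher, where 27.7% of all tested genes were called. Without WT CXCR6+ replicate 3, the library with little Cxcr6, 22 were lower and 9 higher, beside 31.9% of all tested genes called.

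Across the DKO comparisons, the DKO CXCR6+ value lay below all 5 WT CXCR6+ libraries for all 53 genes, beside 28.1% of all tested genes. The DKO SLAMF6+ value lay below all 5 WT SLAMF6+ libraries for 52, beside 30.9%. The fitted change was at least 4-fold for 37 genes in each subset. The lower quartile of the log2 fold changes was -3.41 in CXCR6+ and -3.22 in SLAMF6+ for the 53 genes. Over all tested genes it was -1.98 and -1.46. Fewer than 10 counts were present for 6 genes in DKO CXCR6+ and 4 in DKO SLAMF6+, so their fold changes are imprecise. In every fit tried that could be made for a DKO comparison, from 49 to 53 genes were lower in CXCR6+ and from 50 to 52 in SLAMF6+, and 0 were higher. The interaction was called for 12 genes, 7 negative and 5 positive, where 10.3% of all tested genes were called. With limma-voom 2 were called, Pbk and Ncapd2, where 9.95% of all tested genes were called, so the members' share was not above the background.

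**Figure D5:**
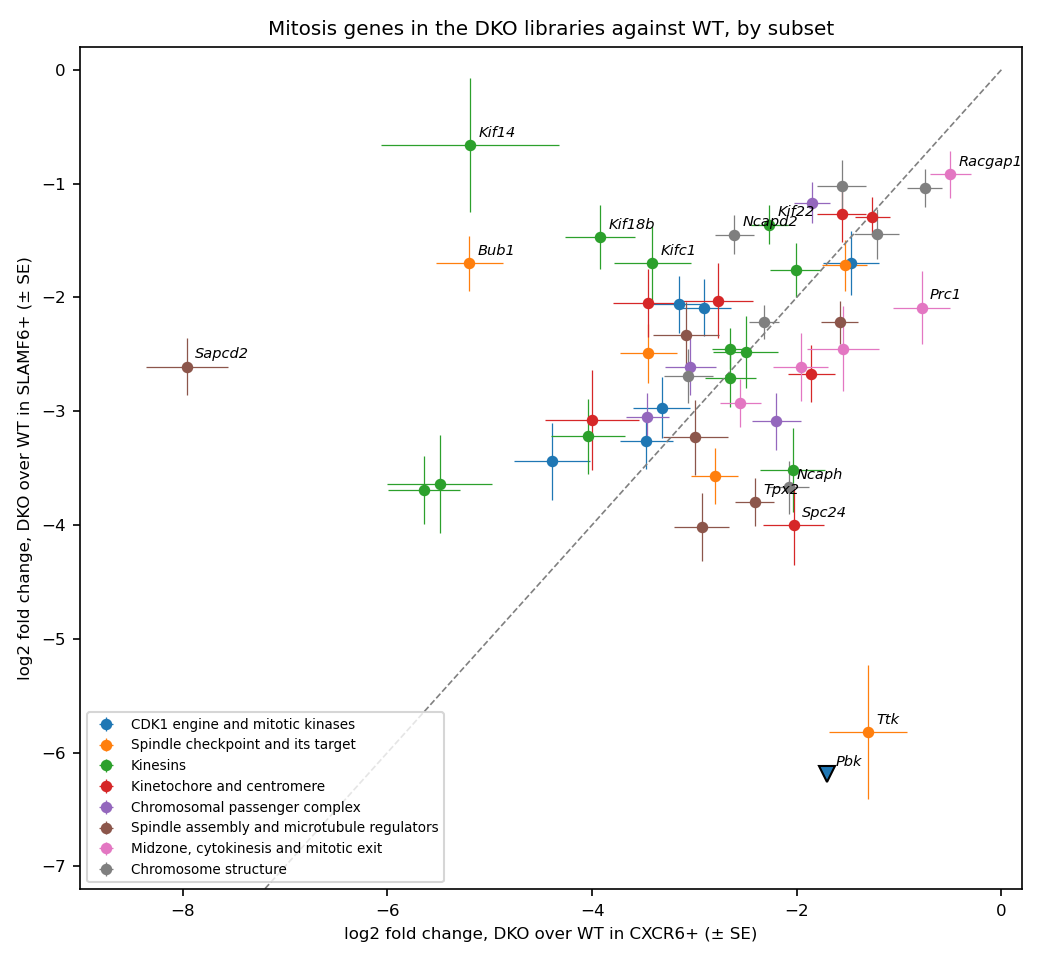
Log2 fold change of DKO over WT in CXCR6+ (x axis) and in SLAMF6+ (y axis), each with SE, for the 53 genes coloured by role; the dashed line marks equal change, names mark called interactions and the genes not called in CXCR6+, and the triangle puts Pbk at its bound on the y axis. All points lie below 0 on both axes, and Sapcd2 (-7.96 in CXCR6+) and Ttk (-5.82 in SLAMF6+), each at 1 count, lie far out on 1 axis. At such low counts the SE can understate the error.

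The 2 DKO libraries were not tested against each other. With a prior count of 2, the median log2 ratio of DKO CXCR6+ to DKO SLAMF6+ was -0.30, with 31 genes lower and 22 higher in CXCR6+. Over all tested genes the median was 0.0, and 9742 of 21565 were lower in CXCR6+. The quartiles were -1.23 and 0.27 for the 53 genes, beside -0.51 and 0.44 over all tested genes. The ratio was at least 2-fold lower for 15 genes, among them Cdk1 (-1.55) and Nusap1 (-1.71), and at least 2-fold higher for 7, among them Anln (1.24).

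Markers of some other cells differed between WT and DKO libraries. The sum of 16 myeloid markers was 9.02 to 18 CPM in the WT CXCR6+ and 22.8 to 34.1 CPM in the WT SLAMF6+ libraries. It was 1599 CPM in the DKO CXCR6+ library, with 658 CPM from Ly6c2, and 495 CPM in the DKO SLAMF6+ library, with 363 CPM from Ly6c2. The granulocyte genes S100a8 and S100a9 were at 0 in every WT library. They reached 497 and 425 CPM in DKO CXCR6+, while Adgre1, Aif1, Cd14 and the 3 C1q genes were at 0 there. MHC class II and dendritic markers (8 genes) summed to 87.3 to 142 CPM and 268 to 330 CPM in the WT subsets and to 264 (CXCR6+) and 1587 (SLAMF6+) CPM in DKO. In CXCR6+ the sum of 9 T cell markers was 3991 to 5953 CPM in WT and 4791 CPM in DKO, and in SLAMF6+ it was 6055 to 7094 CPM in WT and 5121 CPM in DKO. Among them Trac was lower in DKO (541 and 727 CPM, beside 2015 to 4149 CPM in WT) and Cd3e higher (577 and 543 CPM, beside 140 to 241 CPM). The T cell sum in DKO was 0.985 of the WT mean in CXCR6+ and 0.758 in SLAMF6+. These ratios combine the fall of Trac, 2605 of the 4862 CPM in WT CXCR6+ on average, with rises such as that of Cd3e. Il23r, a subunit of the IL-23 receptor of TH17 cells, was at 1.85 and 0.144 CPM in DKO, beside 30.9 to 41.4 CPM in WT. The sum of 7 erythroid markers was 143478 CPM in DKO SLAMF6+ and at most 3.58 CPM in the other libraries, and those of 5 B cell and 4 endothelial markers were at most 5.65 and 37.4 CPM in any library. The sum of 9 neural markers was 112 to 141 CPM in WT CXCR6+, 250 to 290 CPM in WT SLAMF6+ and 251 (CXCR6+) and 234 (SLAMF6+) CPM in DKO, and that of 2 CD8 T cell markers was at most 24.4 CPM. The part of any of these cells in the result was not tested.

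Levels can be compared between genes only per length. Per kilobase of the longest coding transcript, Stmn1 stood highest in both WT subsets, at 117 CPM per kb in CXCR6+ and 217 in SLAMF6+, followed by Cenpa at 91.0 and 123. Cdca8 (55.6 and 62.1) and Cdc20 (47.9 and 66.0) took the next places in both, and Kif14 stood lowest, at 0.524 and 0.358 CPM per kb. Stmn1 and Cenpa were also the highest in DKO, at 39.2 and 38.0 CPM per kb in CXCR6+ and 46.6 and 50.2 in SLAMF6+.

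Over the 12 libraries the genes followed each other closely. Aurkb correlated best with the mean of the other members (Pearson's r = 0.994), then Cdca8 (0.993) and Aurka (0.992), and Mki67 (0.725), Kif14 (0.754) and Ttk (0.782) least. These values include the gap between WT and DKO, which all members share. Of 5320 genes of at least 20 CPM outside the lists, Upp1 (0.995), Tnip3 (0.994), Gap43 (0.994), Rab34 (0.994) and Akr1b8 (0.993) had the most similar pattern, each at 2.89 CPM or less in the DKO libraries.

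Reads of some members cannot be told apart from those of a neighbour, since the libraries do not mark strand. Exons of Cdc23 on the opposite strand cover 29.3% of those of Kif20a, and Pdzd11 covers 15.1% of Kif4, Lcorl 13.4% of Ncapg and Rccd1 11.1% of Prc1. Pseudogene rows of Ccnb1, Ccnb2, Kif22 and Kif4 are in the table, and how reads were shared with them is not given in the sources used here.

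Another 106 mitosis genes were tested as a list. In DKO CXCR6+ 60 were lower and 7 higher (median -0.99), and in DKO SLAMF6+ 65 were lower and 4 higher (median -1.19). In WT CXCR6+ 28 were lower and 13 higher (median -0.15), a called share of 38.7% that is close to the 33.3% of all tested genes. Gtse1, a microtubule-binding protein of G2, fell in both DKO libraries (in CXCR6+ from 49.4 ± 3.79 CPM, SD, n = 5, to 2.08, and in SLAMF6+ from 55.0 ± 3.50 to 4.48), as did Ckap2l (log2 -3.84 ± 0.22 and -3.13 ± 0.21). Spag5, the spindle protein astrin, was among the 3 smallest p in CXCR6+ (-4.76 ± 0.27) and Cenpl, a centromere protein, in SLAMF6+ (-3.45 ± 0.19). Some members of the pathway went the other way. Cdc25b, the phosphatase that activates CDK1, was higher in DKO, at 249 CPM against 75.1 ± 18.2 (SD, n = 5) in CXCR6+ and 193 CPM against 64.3 ± 3.28 in SLAMF6+. Pttg1, securin, was also higher (log2 1.44 ± 0.17 and 0.92 ± 0.17), as was Cenpx in CXCR6+ (1.35 ± 0.16) and Pds5a, a cohesin regulator, in SLAMF6+ (0.69 ± 0.17).

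In WT the smallest p in this list were for Cks1b, a CDK-binding subunit (-0.99 ± 0.11), Anapc16 (-0.64 ± 0.07) and Cenpx (-0.87 ± 0.10), lower in CXCR6+, and for Cit, the citron kinase of cytokinesis (1.43 ± 0.13), Pds5a (0.97 ± 0.10) and Mybl2, which encodes B-MYB (1.09 ± 0.15), higher. Of 44 S phase genes, which copy DNA before mitosis, 28 were lower and 2 higher in DKO CXCR6+ (median -1.11), 35 lower and 0 higher in DKO SLAMF6+ (median -1.64), and 21 lower and 4 higher in WT CXCR6+ (median -0.36). Of 10 tested genes that restrain the cycle, 1 was lower and 5 higher in DKO CXCR6+ and 3 lower and 5 higher in DKO SLAMF6+. Among them Cdkn1a, which encodes the CDK inhibitor p21, was at 599 ± 55.6 CPM (SD, n = 5) in WT and 9.46 CPM in DKO in CXCR6+, and at 727 ± 64.9 and 15.6 CPM in SLAMF6+. Cdkn1b, the inhibitor p27, was higher in DKO (log2 0.87 ± 0.23 and 1.03 ± 0.22).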

How the data were processed

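RNA was sequenced from 12 libraries of sorted cells, made by a modified SMART-Seq2 protocol with Nextera XT and read as pairs, per the labels' protocols. The deposited table holds expected counts by gene symbol. Per the submitters' processing notes, the authors used the aligner STAR 2.7.7a, the quantifier RSEM 1.3.3 and the build mm10. Which annotation was used is not given in the sources used here. Values were whole numbers and were used as deposited, with no gene left out by name. Totals of 6818658 to 11635037 counts set the precision, and counting intervals (95%, exact Poisson) cover counting error only.

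edgeR 4.0.16 in R 4.3.3 fitted 4 group means to all 12 libraries (TMM, filterByExpr, quasi-likelihood test, Benjamini-Hochberg adjustment, common dispersion 0.396, 8 residual degrees of freedom). The fit was tested on simulated counts with 100 genes changed 2-fold and 100 changed 4-fold. Of the 4-fold changes it recovered 35% in the WT comparison, 21% and 27% in the DKO comparisons (CXCR6+, SLAMF6+) and 8% in the interaction, and of those in genes of at least 10 CPM 96.7%, 61.3%, 67.6% and 18.9%. Of the 2-fold changes in such genes it recovered 43.2%, 8.6%, 11.5% and 2.1%, with at most 1 false call in any comparison, so a gene not called may still differ. Coordinates and lengths are from GENCODE M21, promoters from RefSeq GRCm38.p6. The alternatives, run with DESeq2 1.42.0 and limma 3.58.1 among others, are in the closing section. The members and lists were chosen with earlier results of these data known. Per-library values are given for the 2 most abundant genes of each role, the 3 smallest p per direction and comparison, up to 6 called interactions and up to 4 genes called against the majority. From the list of other mitosis genes the 3 smallest p per direction are named, and Cdkn1a and Cdkn1b were named after their values were seen.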

Additional observations from a re-analysis of the deposited data

Results flagged for a closer look

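In 108 groups of 5 WT libraries (each gene and their sum, in each subset), a single library lay far from the other 4 in 4 groups by Dixon's test, where chance flags about 1 in 20. Ttk had 11.8 CPM in WT SLAMF6+ replicate 4, beside 7.60 to 8.83 in the others, and Kif18a had 7.37 CPM in the same library, beside 8.55 to 8.79. Kif22 had 47.2 CPM in WT SLAMF6+ replicate 2, beside 58.3 to 60.2. Smc4 had 115 CPM in WT CXCR6+ replicate 5, beside 144 to 147.

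For 12 genes the DKO difference itself differed between the subsets by edgeR's interaction test, given here as the log2 difference in CXCR6+ minus that in SLAMF6+. It was negative for Sapcd2 (-5.35), Kif14 (-4.53), Bub1 (-3.51), Kif18b (-2.46), Kifc1 (-1.72), Ncapd2 (-1.16) and Kif22 (-0.91), and positive for Pbk (9.47), Ttk (4.52), Spc24 (1.96), Ncaph (1.59) and Tpx2 (1.39). The value of Pbk rests on 0 counts in DKO SLAMF6+, so its size depends on the prior count and is no bound. Sapcd2, Kif14 and Ttk rest on 1 count in 1 DKO library.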

How the results depend on the processing

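The lower level of the 53 genes in DKO kept its direction under every alternative run: 49 of the 51 calls in CXCR6+ and all 52 in SLAMF6+ were kept in each setting with the usual threshold in which the gene was tested (Ttk, Kif14 and Kif18a were not tested with the filter of 10 CPM). In SLAMF6+ the median moved to -2.25 with that filter, which asks for 10 CPM in 5 libraries. In WT, 5 of 32 calls were kept in every setting (Kif15, Incenp, Birc5, Nusap1 and Cdca3). The count of calls moved from 32 to 1 with a fold of at least 2, to 21 with offsets for length and GC content, and to 16 and 7 within libraries with mt-Ts1 at 0 and with counts. With a fold of at least 2, 13.2% of all tested genes were called in WT, so the members' share was below the background there. The count of member calls in WT ranged from 21 to 35 without a replicate number (medians -0.34 to -0.22) and from 26 to 34 without 1 library. The WT median moved to -0.05 with the 10 CPM filter. The sign changed in WT for Smc4 with that filter (to 0.24, from -0.01 in the main fit, where it was not called). It also changed for Cenpa (0.01) and Spc25 (0.06) with the offsets, where both were near 0 and not called. For the interaction, the median moved to -0.48 with the 10 CPM filter. The interaction calls fell from 12 to 2 with limma-voom and to 2 with the replicate block as a random term. There 9.95% and 10.5% of all tested genes were called, so the members' share was below the background in both. Of the 12 interaction calls, that of Pbk was kept in every setting.

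Correlations between WT libraries of the same replicate number were -0.0117 to 0.029, beside -0.0392 to 0.0335 for different numbers. Values this close to 0 cannot decide whether the numbers pair the libraries. With the replicate block as a fixed term 29 genes were called in WT and 9 in the interaction, beside 32.2% and 7.22% of all tested genes. As a random term 35 were called in WT, 49 in DKO CXCR6+ and 52 in DKO SLAMF6+, beside 37.0%, 30.4% and 33.7%. The causes of these shifts were not tested. Members under 10 counts in a DKO library, and the single DKO library of each subset, limit the precision.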
